A study of Bos taurus with 8 samples.

Results

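The vascular miRNAs miR-126, miR-143, miR-145, miR-221 and miR-222 were taken from the small RNA profiles of bovine sera and exosomes by their names. The names matched 6 of the 534 bovine miRNAs listed, because both arms of the miR-126 hairpin, miR-126-5p and miR-126-3p, are listed separately. All 6 had reads in every library and belong to the 365 miRNAs called expressed, which means an RPM (the reads of a miRNA scaled to the miRNA reads of its library) above 1 in at least 2 cows of a sample type. Blood was taken from 4 healthy lactating Holstein cows, and 1 small RNA library was made from the serum of each cow and 1 from exosomes, the small vesicles shed by cells, isolated from the same serum. All 8 libraries come from untreated animals, so the only groups are the 4 sera and the 4 exosome libraries. The RNA of the sera was extracted with a Norgen kit and that of the exosomes with Invitrogen kits from a larger volume of serum, so the sample type and the extraction cannot be told apart. RPM values of miRNAs, which are nearly equal in length, are set side by side below, but how well each sequence was recovered in library preparation was not measured.

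MiRNAs are short RNAs that lower the output of messenger RNAs matched by a seed near their 5′ end. MiR-126 is made from an intron of EGFL7, an endothelial gene, and is known for its role in the integrity of blood vessels. MiR-143 and miR-145 are processed from 1 transcript and are typical of smooth muscle cells, and miR-221 and miR-222 are processed from another, share their seed and act in endothelial and smooth muscle cells, with the receptor KIT and the cell cycle inhibitor p27 among their known targets. In the bovine assembly ARS-UCD2.0, which served here only to name neighbours, MIR126 lies within EGFL7, MIR143 is next to MIR145 within LOC132345768, and MIR222 is next to MIR221 within LOC132344329. The profiles are of cell-free blood, and more cells releasing a miRNA cannot be told apart from more of it released per cell.

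Between 264769 and 590162 miRNA reads stood behind a serum profile and between 60682 and 157710 behind an exosome profile. The floor set by 3 reads was accordingly 5.08 to 11.3 RPM for sera and 19.02 to 49.4 RPM for exosomes. Intervals and floors given here cover counting error only, because PCR makes copies of 1 molecule. The most abundant miRNA, miR-486 of red blood cells, had a mean of 158802 ± 31862 RPM over the sera and one of 267558 ± 72036 RPM over the exosomes (SD, n = 4 each). Both libraries of cow 1 stood apart by the summed share of their striated muscle miRNAs, most of it miR-133a. This sum was 2.31% of the miRNA reads in the serum and 2.63% in the exosomes of the cow, against 0.0164% to 0.0355% in the other 6 libraries. MiRNAs of red blood cells and of white blood cells and platelets were present in all libraries, and the small RNA values hold no marker by which exosomes could be recognised.

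The 6 miRNAs differed in abundance by more than 100 times. MiR-143 was the highest of them in every library, miR-126-5p followed, and miR-145, the partner of miR-143, was the lowest. Ordered by mean level in sera, they were miR-143 with 35287 ± 20704 RPM, miR-126-5p with 12064 ± 2797 RPM, miR-221 with 4963 ± 1545 RPM, miR-126-3p with 2165 ± 414 RPM, miR-222 with 1254 ± 503 RPM and miR-145 with 282.5 ± 68.0 RPM (SD, n = 4). The order was the same in exosomes, where the means ran from 22772 ± 12645 RPM for miR-143 to 167.5 ± 24.8 RPM for miR-145 (SD, n = 4). Among the listed miRNAs, miR-143 ranked 6th by mean level in sera and 10th in exosomes, while miR-145 was not among the first 100 in either. Neighbours in this order did not overlap between libraries of a sample type, with the exception of miR-126-3p and miR-222, whose values overlapped in both sample types and whose order was turned in the exosomes of cow 3.

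**Figure D1:**
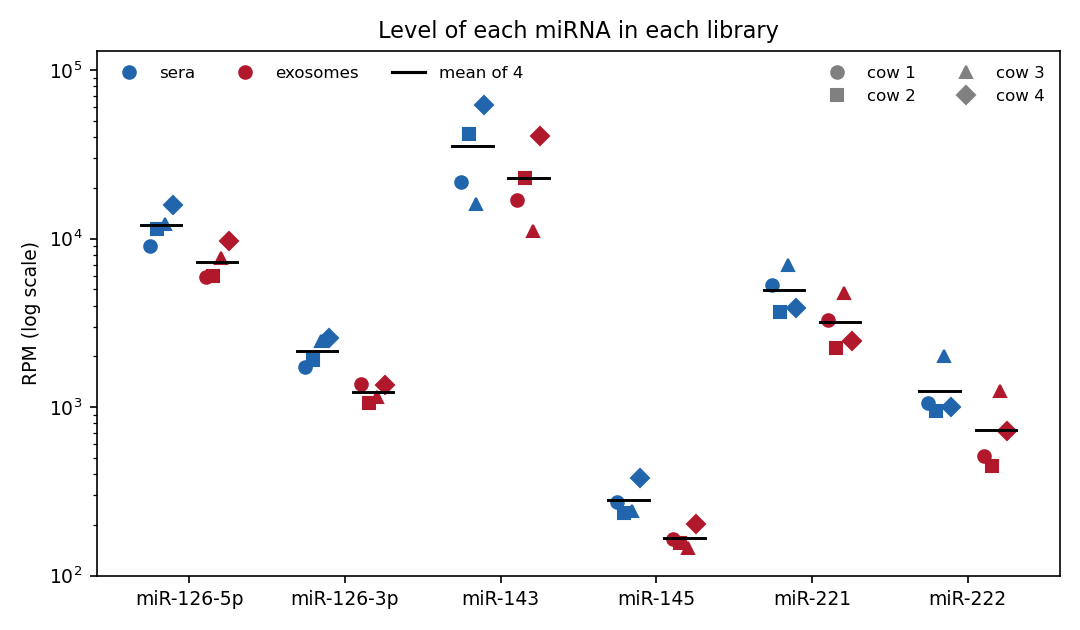
RPM on a log axis for each of the 6 miRNAs, with sera in blue, exosomes in red, a marker shape for each cow and a bar at the mean of 4 libraries. MiR-143 lies highest and is widest, from 11070 to 61664.9 RPM, and miR-145 lies lowest, from 146.4 to 381.3 RPM.

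The arms of miR-126 come from 1 hairpin, and miR-126-3p is the arm most often studied in endothelial cells. MiR-126-3p reached 1718 RPM, 1911.3 RPM, 2466.3 RPM and 2563.7 RPM in the sera of cows 1 to 4. In their exosomes it reached 1367.8 RPM, 1052.6 RPM, 1151.9 RPM and 1356.9 RPM. Every serum was therefore above every exosome library, and the exosome libraries lay close together, within 1.30-fold. MiR-126-5p, the other arm, reached 8994 RPM, 11342.6 RPM, 12180.4 RPM and 15738.7 RPM in sera. Its exosome values were 5916.1 RPM, 5972.6 RPM, 7643.6 RPM and 9644.3 RPM. The groups of miR-126-5p overlapped by the exosomes of cow 4, which were above the serum of cow 1.

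MiR-143 is abundant in smooth muscle. Its values in the sera of cows 1 to 4 were 21742.1 RPM, 41607.2 RPM, 16134.8 RPM and 61664.9 RPM. The exosome values were 16874.9 RPM, 22822.3 RPM, 11070 RPM and 40320.8 RPM. Cow 4 was highest and cow 3 lowest in both preparations, and the sera and exosome values overlapped widely. MiR-145, which is cut from the same transcript and is known to promote the contractile state of smooth muscle cells, gave 273.2 RPM, 233.8 RPM, 241.7 RPM and 381.3 RPM in sera. Its exosome values of 164.8 RPM, 155.9 RPM, 146.4 RPM and 202.9 RPM were all below the sera, but they rest on 10, 20, 15 and 32 reads. For the exosomes of cow 1 the 95% exact binomial (Clopper-Pearson) interval of miR-145 was 79.0 to 303 RPM, which takes in the sera of all but cow 4.

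MiR-221 and miR-222 stood highest in cow 3 in both preparations. MiR-221 reached 5318.6 RPM, 3648.2 RPM, 6998.6 RPM and 3884.8 RPM in the sera of cows 1 to 4. In exosomes it reached 3279.4 RPM, 2253.4 RPM, 4754 RPM and 2479.2 RPM. The groups overlapped, since the exosomes of cow 3 held more miR-221 than the sera of cows 2 and 4. MiR-222 reached 1059.2 RPM, 948.9 RPM, 2005.5 RPM and 1002.6 RPM in sera. Its exosome values were 510.9 RPM, 444.4 RPM, 1239.8 RPM and 722.8 RPM. Only the exosomes of cow 3 reached into the range of the sera.

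The comparison of sera with exosomes asks how the share of a vascular miRNA among the miRNA reads differs between the preparations. It does not give the part of a miRNA carried in the vesicles, since the sera may also hold the exosomes, as the paper states. As shares of the miRNA reads, all 6 were higher in sera in 4 of 4 cows, by 1.51-fold to 1.77-fold on the log2(RPM + 1) scale, but only miR-126-3p passed the test across all expressed miRNAs. Its log2 difference, sera minus exosomes, was 0.80 (SE 0.20, limma, Benjamini-Hochberg FDR = 0.0252), and between cows the difference ran from 0.33 to 1.10. This was below the log2 fold change of 1 that the study also required, so none of the 6 met both criteria. Of the 365 expressed miRNAs, 5.21% were called higher in sera by FDR alone, against 1 of the 6. The call of miR-126-3p was lost when the serum of cow 2, 3 or 4 or the exosomes of cow 2 or 3 were left out, with limma FDRs of 0.0503 to 0.0820.

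The other 5 had differences of similar size that did not pass. The log2 difference was 0.83 (SE 0.33) for miR-222, 0.73 (SE 0.23) for miR-126-5p, 0.73 (SE 0.30) for miR-145, 0.65 (SE 0.27) for miR-221 and 0.60 (SE 0.43) for miR-143. Their limma FDRs were 0.147, 0.0752, 0.149, 0.152 and 0.409 in that order, and 5 of the 6 had an unadjusted p under 0.05, miR-143 being the exception. At that p, 83 of the 365 expressed miRNAs and 45 of the 128 with at least 10 reads in every library were higher in sera. The difference of miR-143 had both the largest SE and the largest FDR. Every serum was above every exosome library for miR-126-3p and miR-145, that is for 2 of the 6, while this held for 11.8% of the expressed miRNAs. A higher value in sera in 4 of 4 cows, which held for 6 of the 6, held for 30.7% of the expressed miRNAs and for 51.6% of the 128 miRNAs for which no library had fewer than 10 reads. All 6 belong to those 128, and when limma was fitted on them alone, miR-126-3p, miR-126-5p and miR-145 were called, as were 23.4% of the 128 in that fit. Leaving out the exosomes of cow 4 brought miR-126-5p past the threshold (limma FDR = 0.0399), and leaving out the exosomes of cow 3 brought miR-222 past it (limma FDR = 0.0387).

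Serum and exosomes of a cow come from the same blood, so the cow was entered as a replicate block in a second fit. This block removes the spread between cows, and all 6 were then called higher in sera, as were 23% of the expressed miRNAs. That 23% takes in miRNAs with few reads, while all 6 have at least 10 reads in every library, so it is not a like background. Of the 128 miRNAs with that depth, 51.6% were higher in sera in 4 of 4 cows. The limma FDRs with the block were 2.2e-08 for miR-126-3p, 5.2e-09 for miR-126-5p, 6.5e-06 for miR-143, 0.0217 for miR-145, 4.5e-07 for miR-221 and 4.6e-07 for miR-222. With the same block and TMM scaling, edgeR's quasi-likelihood test was run on reads recovered from the RPM values, and 5 of the 6 passed and miR-145 did not (edgeR FDR = 0.0905). With 4 cows these FDRs rest mostly on variance pooled over miRNAs, and for each of the 6 the differences within cows had p = 0.125 in an exact sign-flip test, the smallest that 4 cows allow.

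**Figure D2:**
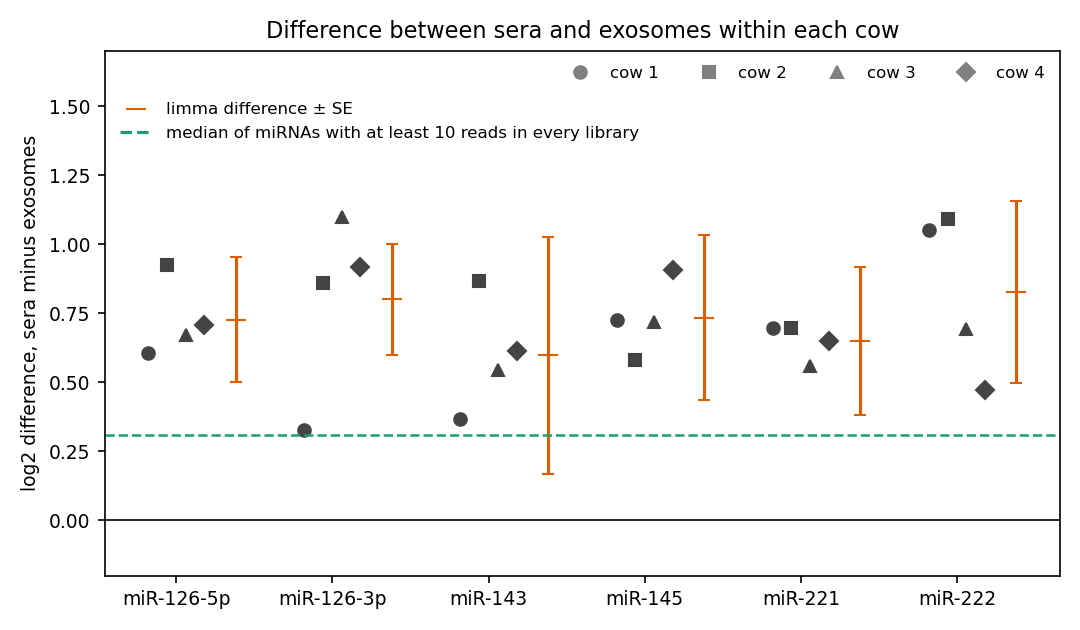
Log2 difference in RPM, sera minus exosomes, for each miRNA, with a marker for each cow, the limma difference ± SE in orange and a dashed line at the median of the 128 well-covered miRNAs (10 reads or more in each library), 0.31. Every marker lies above 0, between 0.33 for miR-126-3p in cow 1 and 1.10 for miR-126-3p in cow 3, and the SE is widest for miR-143, at 0.43.

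The direction of this difference holds for shares of the miRNA reads and depends on what the reads are divided by. MiR-486 had the higher mean share in exosomes, with a log2 difference of -0.73 (limma FDR = 0.149, and 2.1e-05 with the cow as block). The median log2 difference, sera minus exosomes, was 0.57 over the 365 expressed miRNAs and 0.31 over the 128, against 0.73 over the 6. Without miR-486 in the denominator the median of the 128 was 0.11 and that of the 6 was 0.53. With edgeR's TMM scaling these medians were 0.11 and 0.52, and with DESeq2's size factors they were -0.02 and 0.41. Relative to miR-93, the reference miRNA of the study's RT-qPCR, the medians were -0.11 and 0.31. MiR-93 itself had a log2 difference of 0.42 (limma FDR = 0.196, and 0.0021 with the cow as block), which this scaling takes off every other difference. The 6 thus stayed above the median of the 128 and higher in sera under these scalings, but without the replicate block none of them passed the threshold under any of the 4, in limma without miR-486 and relative to miR-93, in edgeR with TMM and in DESeq2. An unadjusted p under 0.05 was reached by 2 of the 6 without miR-486, by 2 with TMM, by 1 with DESeq2 and by 0 relative to miR-93. At that p, 60 of 364 tested miRNAs were higher in sera without miR-486 and 34 of 365 with TMM. With DESeq2 it was 24 of 365, and relative to miR-93 it was 19 of 364. When the reads were divided by all sequences that entered the miRNA analysis, of which miRNA reads made up 5.31% to 10.3% for the sera and 8.04% to 16.9% for the exosomes, the median of the 128 was -0.39 and that of the 6 was 0.02. The differences then ran from -0.11 for miR-143 to 0.11 for miR-222, and both miR-143 and miR-221 turned to the higher value in exosomes.

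**Figure D3:**
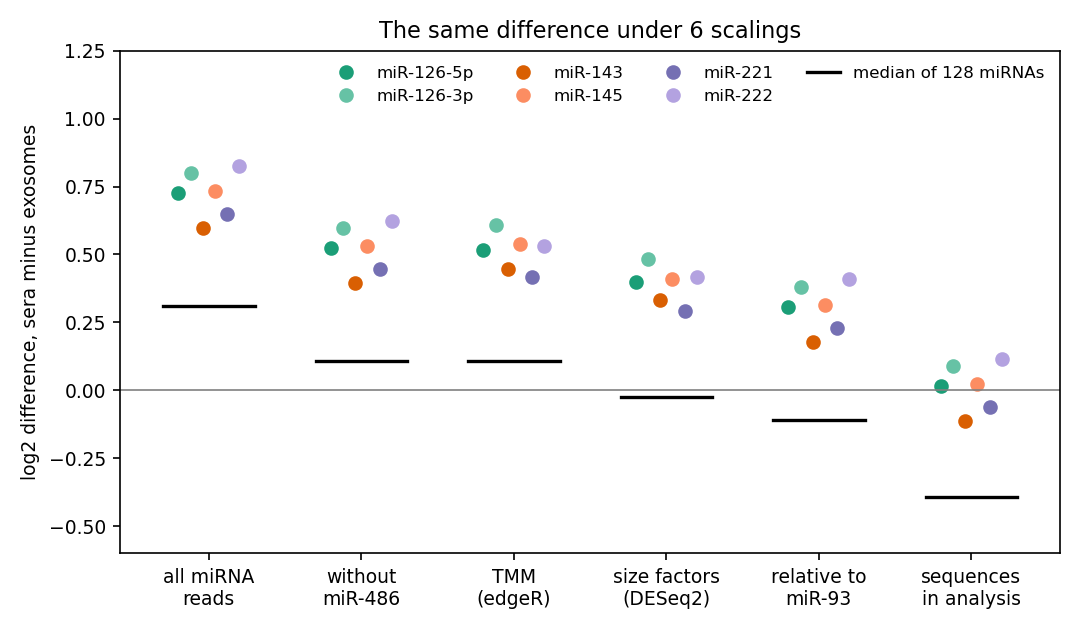
Log2 difference, sera minus exosomes, of the 6 miRNAs (dots) under 6 scalings, with a bar at the median of the 128 well-covered miRNAs. The dots lie between 0.60 and 0.83 over all miRNA reads and between -0.11 and 0.11 over the sequences in analysis, and they lie above the bar under each scaling.

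Together the 6 held 3.91%, 5.97%, 4.003% and 8.52% of the miRNA reads in sera, for cows 1 to 4. Their shares in the exosomes were 2.81%, 3.27%, 2.60% and 5.47%. Cows 2 and 4 had the higher shares in both preparations, and the groups overlapped. The sera had a mean share of 5.60% ± 2.17 and the exosomes one of 3.54% ± 1.32 (SD, n = 4). The difference of 2.06 percentage points did not pass an exact two-sided permutation test (p = 0.171). MiR-143 made up 40.3% to 73.7% of the reads of the 6. Without it the other 5 held 2.07% in sera and 1.26% in exosomes, with no overlap between the groups and p = 0.0286 by the exact permutation test, the smallest that 8 libraries allow. Over the sequences in analysis, the share of all 6 was 0.391% in sera and 0.439% in exosomes (exact permutation test, p = 0.771).

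The paired libraries also ask whether a cow keeps its level of a miRNA in both preparations of its blood, although the cow cannot be told apart from its blood sample. Of the 6, miR-143, miR-221, miR-222 and miR-126-5p differed between cows by a limma F-test of the cow beside the sample type, and miR-126-3p and miR-145 did not pass it. Among the expressed miRNAs 25.5% were called by the same test, and among the 128 well-covered miRNAs 59.4% were, so that 4 of 6 is near the share of the 128. MiR-143 had a range between the 4 cows of 1.90 on the log2 scale, or 3.73-fold (limma FDR = 1.1e-28), the 4th largest of the 128. MiR-222 had a range of 1.28, or 2.43-fold (limma FDR = 6.6e-08), which was the 10th largest. The ranges of miR-221 and miR-126-5p were 1.01 and 0.76 (limma FDR = 2.0e-08 and 0.00015). MiR-145 ranged over 0.56 and miR-126-3p over 0.39 on the log2 scale (limma FDR = 0.609 and 0.342), against a median range of 0.72 over the 128. As with the replicate block, these FDRs rest mostly on variance pooled over miRNAs, because each cow gave 1 library of each sample type.

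The cows did not stand in 1 order for all 6 miRNAs. For miR-143 the order was cow 4, cow 2, cow 1 and cow 3, in both sera and exosomes. MiR-126-5p fell from cow 4 over cow 3 and cow 2 to cow 1, and miR-221 from cow 3 over cow 1 and cow 4 to cow 2, each again in both preparations. In sera miR-126-3p had the same order of cows as miR-126-5p, but in exosomes it was highest in cow 1, with only 83 reads. Cow 4 was highest and cow 1 next for miR-145 in both preparations, and cow 3 was highest and cow 2 lowest for miR-222. Cow 3, the lowest for miR-143, was the highest for miR-221 and miR-222.

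**Figure D4:**
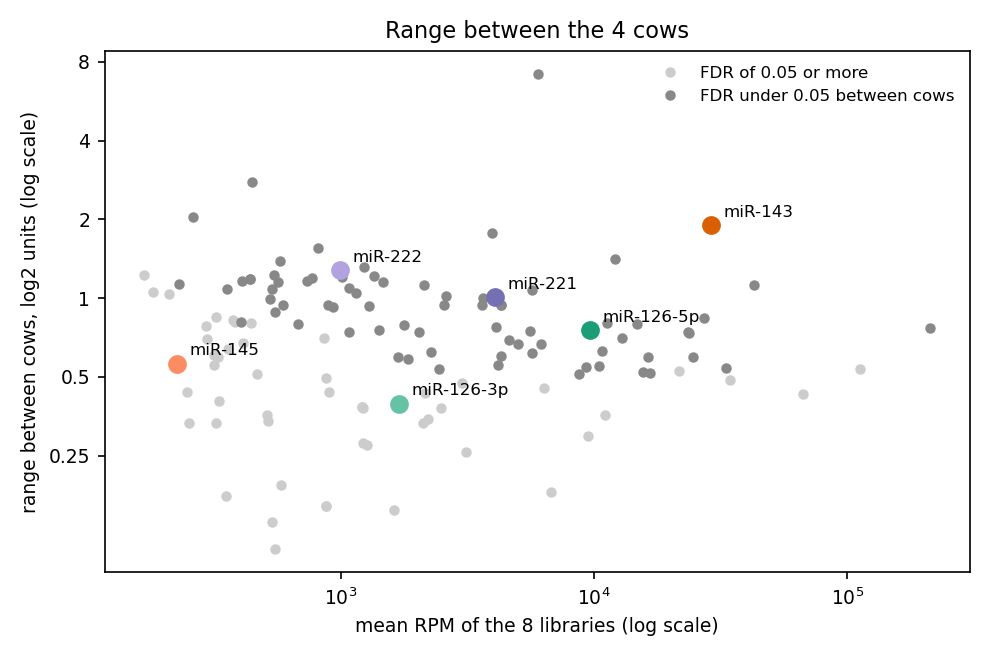
Range between the 4 cows, in log2 units on a log axis, against the mean RPM of the 8 libraries on a log axis, for the 128 well-covered miRNAs, dark grey where the limma F-test of the cow gave an FDR under 0.05. MiR-143 lies at 1.90 near the top, and miR-126-3p lies at 0.39, below the median of 0.72.

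These values rest in part on single cows and on the denominator. Without both libraries of cow 4 the range of miR-143 was 1.21 in place of 1.90, and it was still called (limma FDR = 9.4e-05). Without the same libraries the range of miR-126-5p was 0.40 (limma FDR = 0.286), and without those of cow 3 the range of miR-222 was 0.39 (limma FDR = 0.431). Without cow 1, whose muscle miRNAs stood apart, the same number of the 6, 4, was called. Over the sequences in analysis miR-143 was the only one of the 6 called (limma FDR = 0.0039), and 5 miRNAs were called in all.

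Partners from 1 transcript can be compared as a ratio of reads within a library, which does not depend on the denominator. MiR-143 over miR-145 was 79.6, 178, 66.8 and 162 for the sera, in the order of the cows, and 102, 146.35, 75.6 and 198.7 for the exosomes. Without regard to counting error, the ratio was higher in cows 2 and 4 than in cows 1 and 3 in both preparations. Its values fell apart by cow more than by preparation, which was not tested. Its means were 121 ± 56.4 in sera and 131 ± 53.9 in exosomes (SD, n = 4), with a log2 difference of -0.14 (exact permutation test, two-sided p = 0.714) and differences within cows from -0.36 to 0.28. The SD of the log2 ratio over the 8 libraries was 0.62, while counting error alone gives 0.28. The exact 95% interval of the ratio was 151 to 212 in the serum of cow 2, the highest, and 52.2 to 86.8 in that of cow 3, the lowest. In exosomes, with 10, 20, 15 and 32 reads of miR-145 for cows 1 to 4, the split between cows was only partly resolved. The interval of cow 1 took in the exosome ratios of cows 2 and 4. That of cow 2 (94.6 to 239.95) overlapped that of cow 3 (45.6 to 135.5). The interval of cow 4 (140.6 to 290.8) lay above that of cow 3.

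MiR-221 over miR-222 was 5.02, 3.84, 3.49 and 3.87 in sera and 6.42, 5.07, 3.83 and 3.43 in exosomes. The ratio was highest in cow 1 in both preparations. The log2 difference between the preparations was -0.18 (exact permutation test, p = 0.600), with differences within cows from -0.40 to 0.18. Its SD over the libraries, 0.32 on the log2 scale, compares with 0.15 from counting error alone. The value of 6.42 in the exosomes of cow 1 rests on 31 reads of miR-222 and has an exact 95% interval of 4.38 to 9.70.

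MiR-126-5p over miR-126-3p was 5.24, 5.93, 4.94 and 6.14 in sera and 4.33, 5.67, 6.64 and 7.11 in exosomes. The 5p arm was the more abundant in every library, and this was the steadiest of the 3 ratios, with a log2 SD of 0.23 over the libraries, against 0.11 from counting. The log2 difference between sera and exosomes was -0.07 (exact permutation test, p = 0.714), with differences within cows from -0.43 to 0.28. After adjustment over the 3 pairs every p was 0.714 in the exact permutation tests, which does not show that the ratios are equal in sera and exosomes.

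**Figure D5:**
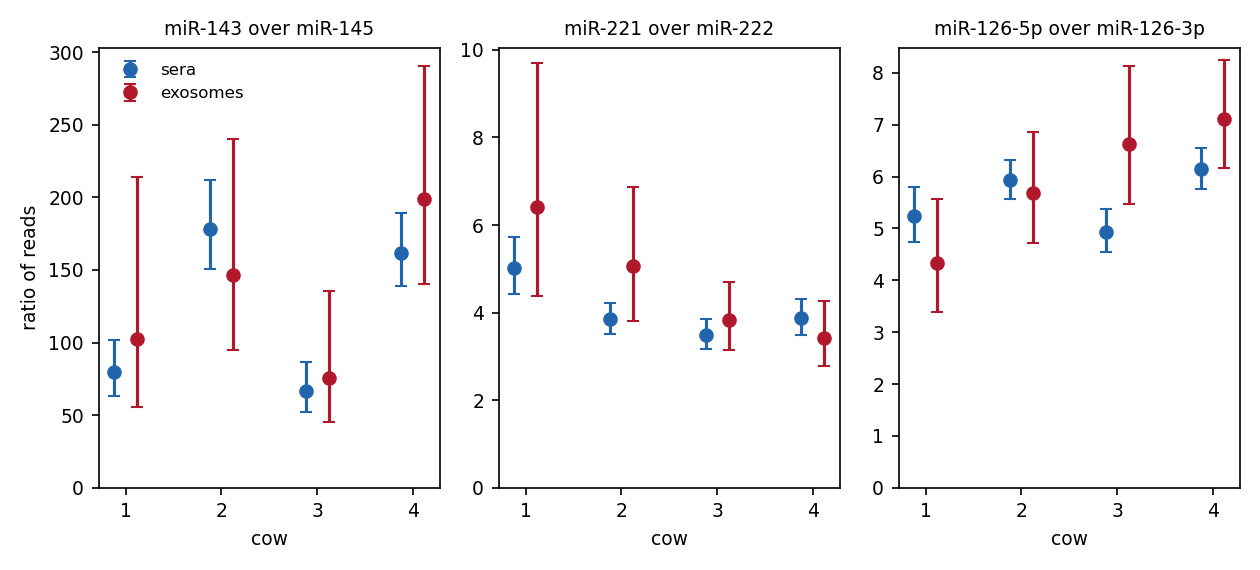
Ratio of reads of the 3 pairs in each cow, sera in blue and exosomes in red, with exact 95% binomial intervals and axes from 0. MiR-143 over miR-145 changes from cow to cow, from 66.8 to 198.7, and the exosome intervals are wide where few reads stand behind the partner.

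Of 16 hairpins with both arms listed and at least 10 reads of 1 arm in every library, 9 had the higher 5p arm, and miR-126 was 8th in the order of 5p over 3p. Its mean log2 ratio was 2.50 over the 8 libraries, with 0.5 reads added to each arm. The hairpins beside it were miR-17, of the cluster known for cell growth, with 3.09, and miR-423 with 1.58. In 6 of these hairpins both arms had at least 10 reads everywhere, and the SD of the log2 arm ratio of miR-126, 0.23, was the second smallest after that of miR-423, 0.18. Its arm ratio therefore lay in the middle of the order of these hairpins.

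The likeness of 2 profiles was measured as the SD, over the 8 libraries, of the log2 ratio of the miRNAs, among the 128 well-covered miRNAs. The libraries share cows and denominators, so this is a description. Of 127 others, miR-126-3p was the 4th nearest to miR-126-5p and miR-126-5p the 6th nearest to miR-126-3p, with an SD of 0.23. MiR-221 was the 4th nearest to miR-222, and miR-222 the 12th nearest to miR-221, with an SD of 0.32. MiR-145 was the 4th nearest to miR-143 with an SD of 0.62, but miR-143 was only the 91st nearest to miR-145. The profile of miR-145 was closer to those of the miR-126 arms, with SDs of 0.23 for miR-126-3p and 0.25 for miR-126-5p, than to that of its own partner. MiR-145 had as few as 10 reads in a library, and counting error alone gave an SD of 0.28 with its nearest profiles. The SDs of 0.23 and 0.25 are not above this, so the order of its near profiles is not resolved. These ranks change with the libraries used: within exosomes alone miR-126-5p was the 56th nearest to miR-126-3p, and within sera alone it was the 2nd.

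The nearest profiles were most often not those of the partner. MiR-221 was nearest to miR-421 with an SD of 0.11, below the 0.13 from counting error, then to miR-877 and miR-130b. For miR-877 the SD of 0.13 was also below that from counting, 0.24. MiR-222 was nearest to miR-296-3p, miR-17-5p and miR-20a, with SDs of 0.19 to 0.26, where counting error alone gave 0.24, 0.22 and 0.26. MiR-126-3p was nearest to miR-152, miR-2957 and miR-27b, with SDs of 0.21 each. Of these, miR-152 and miR-2957 had nearly the same values, so they may not be separate neighbours. They were equal in the exosomes of cow 3 (419.8 RPM) and cow 4 (456.5 RPM), and 477.9 against 428.5 RPM in those of cow 1. Both miR-126-5p and miR-145 had miR-3604, miR-199a-3p and miR-199c nearest to them, with SDs of 0.20 to 0.23. For miR-145 these SDs are below the 0.28 from counting error. MiR-199a-3p and miR-199c cannot be counted apart, since they held 9868 and 9869 reads and differed in 1 library only. MiR-3604 moved closely with miR-199a-3p, at 6309.4 against 7372.5 RPM in the serum of cow 4 and 1886.9 against 2198.8 RPM in the exosomes of cow 2. The 3 may therefore not be separate neighbours. MiR-143 kept its ratio to no other miRNA as closely, and its nearest, miR-125a, miR-199b and miR-497, had SDs of 0.57 to 0.60.

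Of 22 other miRNAs known in endothelial cells or in vessel growth, 21 were listed and expressed. Of these 4 were higher in sera and none in exosomes by limma FDR, beside 19 and 6 of all 365 expressed miRNAs. The 4 were miR-17-5p with a log2 difference of 0.99 (FDR = 0.0426), and miR-23a, miR-23b-3p and miR-24-3p, which come from paired clusters known in vessel growth, with 0.99, 1.26 and 2.30 (FDR = 0.0198, 0.0139 and 0.00062). Their median log2 difference, sera minus exosomes, was 0.76, near the 0.73 of the vascular miRNAs and above the 0.57 of all expressed miRNAs. At an unadjusted p under 0.05 in limma, 11 of the 21 were higher in sera and 2 in exosomes, beside 83 and 11 of the 365. EdgeR with TMM called 3 of the 21 higher in sera and 1 in exosomes, beside 10 and 8 of the 365. DESeq2 called 3 higher in sera and 3 in exosomes, beside 12 and 16 of the 365. With the cow as block in limma, 11 of the 21 were called higher in sera and 2 in exosomes, beside 23% and 3.29% of all expressed miRNAs. Between cows, 9 of the 21 were called, beside 25.5% of the expressed and 59.4% of the well-covered miRNAs. As a summed share of miRNA reads these endothelial miRNAs held 14.0% to 16.7% in sera and 14.4% to 16.7% in exosomes, so the summed shares of the sample types overlapped.

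Of 9 other miRNAs of smooth muscle and fibroblasts, all were expressed and none passed in either direction by limma FDR, nor in edgeR or DESeq2. At an unadjusted p under 0.05 in limma, 5 of the 9 were higher in sera, beside 83 of the 365 expressed miRNAs. With the cow as block, limma called 6 of the 9 higher in sera, beside 23% of all expressed miRNAs. Their median log2 difference was 0.79, and 6 of the 9 were called between cows, near the 59.4% of the well-covered miRNAs and above the 25.5% of the expressed. The most abundant, miR-21-5p, had a log2 difference of -0.01 (limma FDR = 0.984), and miR-26a had 0.37 (limma FDR = 0.330, and 0.00703 with the cow as block). The summed share of the list was 3.52% to 4.69% for the sera and 2.76% to 4.61% for the exosomes.

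The medians of the blood cell lists were lower than those of the vessel lists. Of 6 miRNAs of red blood cells, miR-16a and miR-144 were higher in sera, with log2 differences of 1.44 and 1.10 (limma FDR = 0.00139 and 0.0149). None was called higher in exosomes, beside 19 and 6 of all 365 expressed miRNAs called in these directions. At an unadjusted p under 0.05 in limma, 2 of the 6 were higher in exosomes, beside 11 of the 365. DESeq2 called 2 higher there, beside 16 of the 365, and edgeR 0, beside 8. The median log2 difference of the list was 0.32, and with the cow as block limma called 3 of the 6 higher in sera and 2 in exosomes, again beside 23% and 3.29%. As a sum, in which miR-486 was the largest part, they held 22.9% to 32.5% of the reads in sera and 26.9% to 49.1% in exosomes. Of 9 miRNAs of white blood cells and platelets none was called by limma, edgeR or DESeq2. At an unadjusted p under 0.05 in limma, 2 of the 9 were higher in sera, beside 83 of the 365. With the cow as block in limma, 3 of the 9 were called higher in sera, beside the same 23%. Their median was 0.27, and they held 5.09% to 7.08% in sera and 4.90% to 7.54% in exosomes. The most abundant of them, miR-191 and miR-142-5p, had log2 differences of 0.18 and -0.08 (limma FDR = 0.709 and 0.845). The list was not uniform. In 4 of 4 cows, 5 of the 9 were higher in sera, near the 51.6% of the well-covered miRNAs and above the 30.7% of the expressed. MiR-223 had 0.86 and miR-146a 1.38 (limma FDR = 0.0705 and 0.130, and 1.7e-10 and 3.9e-06 with the cow as block). MiR-150 had -0.18 (limma FDR = 0.669). Of 7 miRNAs of striated muscle 4 were expressed and none was called between the sample types by limma, edgeR or DESeq2 or at an unadjusted p under 0.05, with a median of 0.40, and all 4, among them miR-133a and miR-208b, were called between cows, where cow 1 stood apart. MiR-92a and miR-155 each stand on 2 of these lists. What part these cells have in the differences of the vascular miRNAs was not tested.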

How the data were processed

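Each of 4 cows gave 1 small RNA library from serum and 1 from exosomes of that serum, so all tests rest on 4 animals. Fits without the replicate block and the exact permutation tests treated the 8 libraries as independent. The fits with the block and the F-test of the cow set effects against the spread left within cows. The authors' quality filter was CASAVA 1.8 (also in the submitters' processing notes). They aligned the trimmed reads to bovine miRBase miRNAs with sRNAbench, each library separately, and deposited RPM values. The values of each table add up to the scaling factor of RPM, so they are relative to the miRNA reads alone. Whole reads were recovered from the step of 1 read, and 100% of the values came out whole within 0.1 RPM. Totals of sequences in analysis, the other denominator, came from the study. Libraries of the same preparation all differed by more than counting noise (chi-square per degree of freedom 29.2 or more).

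The 6 miRNAs were chosen by name, and they, the lists and the tests were chosen with earlier results of these data known. Beside them, the text names the 3 nearest profiles of each, from each list those with FDR under 0.05 or else the 2 most abundant, the hairpins beside miR-126 by arm ratio, and miR-486. MiR-93 is named as the RT-qPCR reference of the study, and miR-92a and miR-155 because they stand on 2 lists. MiR-223, miR-146a and miR-150 are named to show the spread within the list of white blood cells and platelets.

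Limma 3.58.1 (lmFit, eBayes with a trend) was fitted to log2(RPM + 1) of 365 expressed miRNAs, with Benjamini-Hochberg adjustment and a call at FDR under 0.05. The study used edgeR, and edgeR 4.0.16 and DESeq2 1.42.0 on the recovered reads are alternatives here because RPM are not counts. Fold changes on the log2(RPM + 1) scale understate changes of low miRNAs. Differences between cows were tested by limma's F-test in sample type plus cow. Pair ratios and shares were tested by exact two-sided permutation over 70 assignments and by sign-flip over 16. Other computations used SciPy 1.17.1, NumPy 2.4.6, pandas 2.3.3 and matplotlib 3.10.9 under Python 3.11.15, and R 4.3.3, and the fits were tested on simulated data.

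The pairing of libraries by cow comes from the numbers in the labels and the study's methods. Over 128 miRNAs, deviations from the mean of the sample type correlated with r = 0.740 to 0.860 for the same cow and -0.501 to 0.195 for different cows. Genome coordinates were not used here, and neither were miRNA sequences.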

Additional observations from a re-analysis of the deposited data

Results flagged for a closer look

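MiR-222 reached 2005.5 RPM in the serum of cow 3, far from the other 3 sera, which lay between 948.9 and 1059.2 RPM. The gap to the nearest serum was 0.896 of the whole range, above Dixon's 95% critical value for 4 samples. Chance marks about 1 in 20 such groups, and 20 groups were examined. In the exosomes of the same cow miR-222 was also the highest of 4, at 1239.8 RPM.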

How the results depend on the processing

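Of 300 results recomputed under alternatives, 233 kept their direction and their side of the threshold, or moved by little. The log2 difference of miR-126-3p, called at 0.80, was no longer past the threshold over the sequences in analysis (0.090), without miR-486 (0.60), relative to miR-93 (0.38), with edgeR and TMM (0.61) and with DESeq2 (0.48). Over the sequences in analysis it reversed for miR-143 (-0.11) and miR-221 (-0.061), and the ranges between cows of miR-126-5p (1.28), miR-221 (0.46) and miR-222 (1.08) were not past the threshold. With at least 10 reads in every library, miR-126-5p (0.73) and miR-145 (0.73) came past it. With the cow as a replicate block in limma, miR-126-5p (0.73), miR-143 (0.60), miR-145 (0.73), miR-221 (0.65) and miR-222 (0.83) did so too, and in edgeR with the replicate block miR-126-5p (0.52), miR-143 (0.39), miR-221 (0.44) and miR-222 (0.57). For the pair ratios and the share the block was a sign-flip test over 4 cows, which cannot go below 0.125 and so could change no call. Over all alternatives the lowest FDR of the 6 ran from 5.2e-09 (miR-126-5p) to 0.0217 (miR-145) and the highest from 0.936 (miR-126-3p) to 0.989 (miR-145).

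The 19 miRNAs called higher in sera became 30 with at least 10 reads, 0 over the sequences in analysis in limma (13 at an unadjusted p under 0.05), 1 relative to miR-93, 84 and 55 with the replicate block in limma and edgeR, 10 with edgeR and 12 with DESeq2. The 6 called higher in exosomes became 12 and 24 with the block and 16 with DESeq2. The 93 called between cows became 5 over the sequences in analysis. The share of the 6, 2.06 percentage points higher in sera, reversed to -0.0483 over the sequences in analysis and was 0.811 and past the threshold without miR-143.

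With each library left out, the log2 differences ran from 0.71 to 0.91 for miR-126-3p, 0.59 to 0.87 for miR-126-5p, 0.26 to 0.93 for miR-143, 0.58 to 0.83 for miR-145, 0.47 to 0.86 for miR-221 and 0.58 to 1.12 for miR-222, the share from 1.09 to 2.71, and the calls higher in sera from 11 to 25 and those higher in exosomes from 4 to 7. The log2 ratios ran from -0.37 to 0.11 for miR-143 over miR-145, turning without the serum of cow 1 (0.021), that of cow 3 (0.11) or the exosomes of cow 4 (0.09), and from -0.22 to 0.02 for the arms of miR-126, turning without the exosomes of cow 4 (0.021). For miR-221 over miR-222 they ran from -0.31 without the exosomes of cow 4 to -0.013 without those of cow 1. With each cow left out, the ranges between cows ran from 0.40 to 0.76 for miR-126-5p, 0.39 to 1.28 for miR-222, 0.54 to 1.01 for miR-221, 1.21 to 1.90 for miR-143, 0.17 to 0.56 for miR-145 and 0.25 to 0.39 for miR-126-3p, each lowest without cow 4 except miR-222 and miR-221, and the calls between cows from 58 to 86. The causes of these changes were not tested. A limit of 100 reads in every library left no rank of a partner, since miR-145, miR-222 and miR-126-3p have as few as 10, 31 and 83 reads in a library. Depth limits miR-145 most, and its exosome values carry the widest counting intervals.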
